A study of Physcomitrium patens with 47 samples.

Results

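Loss of NDUFA5, a subunit of the mitochondrial respiratory complex I, was examined at the end of the night in the moss Physcomitrium patens, by comparison of 4 knockout (KO) libraries with 6 wild-type (WT) libraries out of the 47 libraries of the series. The NDUFA5 KO plants belong to lines 46 and 48, with 2 libraries each, in which a cassette for antibiotic resistance had been put into the gene by homologous recombination. Since 2 independent lines stand for the knockout, a change that both carry for another reason cannot be told apart from an effect of the gene. The WT plants carry no cassette. All plants were protonema (branching filaments) together with young leafy gametophores, grown in boxes over a liquid nitrate medium with 12 h of light and 12 h of darkness a day. Harvest was at ZT0, the end of the night, with ZT counting the hours since the lights came on. The boxes had been wrapped in foil for the night, and the tissue was frozen under dim green light. Libraries were assigned by genotype, line and time in the sample titles. For context, values of the same lines in the light, at ZT2 and ZT6, are given where needed. These times have 5 NDUFA5 KO libraries each, against 4 and 8 WT libraries. Values are also given from a knockout of COX11, an assembly factor of cytochrome c oxidase, with 5 libraries at ZT0. Its libraries at ZT2 and ZT6, 5 at each time, were used for lists of genes and for comparison with WT at ZT6. The COX11 KO libraries come from 2 lines.

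Complex I is the NADH dehydrogenase of the inner mitochondrial membrane. It passes electrons from NADH to ubiquinone and pumps protons that drive ATP synthesis. Plant mitochondria also hold alternative NAD(P)H dehydrogenases, which pass electrons to ubiquinone without pumping protons. In the light the chloroplast supplies ATP and reductant as well, whereas in darkness plant cells rely on respiration of carbon stored during the day, so that the end of the night is the time at which reserves are lowest. The vegetative moss is haploid.

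Reads were taken from the 3′ ends of transcripts, so long genes gained no counts by their length. Counts in genes were 5793539 and 10349601 in the line 46 libraries and 5833019 and 5034392 in the line 48 libraries, against 4501681 to 6002804 in WT. The deposited table gives gene identifiers (IDs) without names, and none of these IDs was found in the reference table. The disrupted gene could therefore not be checked in the counts, markers of protonema and gametophore could not be read, and no gene is described by function. Genes with at least 1 count numbered 19756 ± 569 in NDUFA5 KO (SD, n = 4) and 19783 ± 362 in WT (n = 6; exact permutation test, two-sided, p = 0.943). In NDUFA5 KO the 10 most abundant genes held 8.58% ± 0.223 of the counts, against 7.16% ± 0.75 in WT, and 646 to 697 genes made up the upper 50% of the counts, against 683 to 800 genes in WT. Neither measure passed adjustment over the 7 library measures compared (exact permutation tests, two-sided, adjusted p = 0.0556 for each). Reads that fell in no gene made up 1.09% ± 0.0673 of the reads in NDUFA5 KO and 0.772% ± 0.0548 in WT, without overlap (exact permutation test, two-sided, p = 0.00476, the smallest possible, adjusted p = 0.0333). Their part in the results below was not tested.

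Genotype was the main axis along which these 10 libraries differed. The first principal component of log2 CPM (counts scaled to library totals after TMM adjustment, so that a gene's CPM exceeds its plain share of the counts) held 63.9% of the variance, and 63.4% without the genes whose ID starts with Pp3c2. Its scores lay between -101 and -87.3 in NDUFA5 KO and between 41.98 and 80.6 in WT, with no library between the groups. The second component held 9.60%. It separated WT 4 and WT 6, at -54.2 and -49.4, from the other WT libraries, at 4.83 to 37.9, while NDUFA5 KO libraries lay between -14.1 and 32.9.

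**Figure D1:**
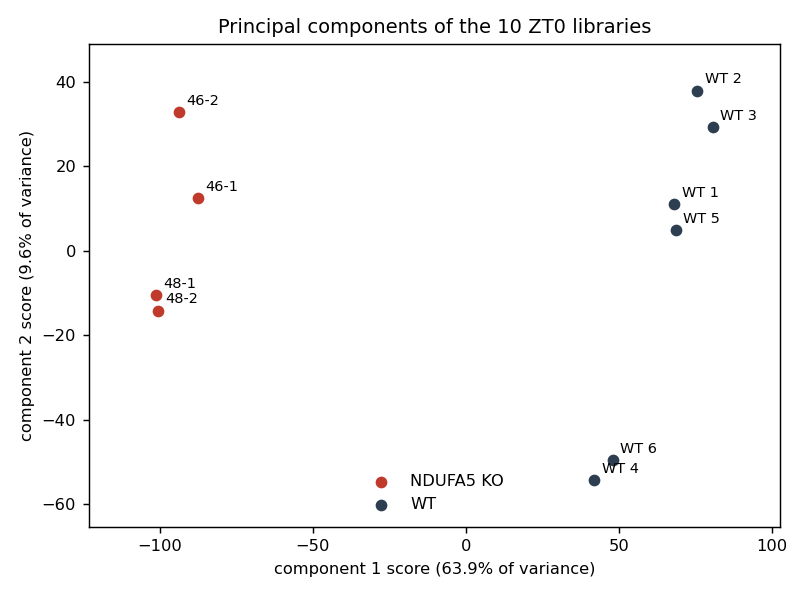
Scores of the 10 ZT0 libraries on the first (horizontal axis) and second (vertical axis) principal components of log2 CPM, with the share of variance on each axis; each point is 1 library. The 4 NDUFA5 KO libraries lie between -101 and -87.3 on the first component and the 6 WT libraries between 41.98 and 80.6.

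When the night ended, most of the genes measured differed between NDUFA5 KO and WT. Of 18460 genes tested, 11380 (61.6%) were called at a false discovery rate (FDR) of 0.05 by edgeR's quasi-likelihood test, 5541 of them higher in NDUFA5 KO (30% of the genes tested) and 5839 lower (31.6%). Changes of at least 2-fold were called in 2486 higher genes (13.5%) and 3397 lower genes (18.4%). Without the genes of the ID prefix Pp3c2, 10533 of 17317 genes were called (60.8%), 4829 higher (27.9%) and 5704 lower (32.9%), with 1998 higher and 3315 lower by at least 2-fold. In whole plants, fewer cells of a type and less RNA per cell cannot be told apart. Whether the libraries of a group came from separate cultures is not given in the labels, so the p-values rest on a spread among libraries that may be technical. The comparison also took libraries of the same line as separate replicates of the genotype. The balance of higher and lower genes depended on the scaling. With TMM scaling 48.7% of the called genes were higher and all genes had a median log2 fold change of -0.044, whereas with library totals alone 37.8% were higher and the median was -0.23. Directions of groups of genes are therefore given beside the median of all genes.

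For 7202 genes (39%) the CPM of the 4 NDUFA5 KO libraries and of the 6 WT libraries did not overlap. In 3805 of them (20.6%) every NDUFA5 KO library was above every WT library, and in 3397 (18.4%) every one was below. The sum over the genes called higher was 53.6% to 56.4% of all counts in the NDUFA5 KO libraries, against 27.4% to 31.6% in the WT libraries. The genes called lower gave 13.1% to 15.0% of the counts in NDUFA5 KO and 32.4% to 37.6% in WT. These shares describe genes picked by the same comparison. They show that the called genes made up most of the counted mRNA in both genotypes.

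Losses were larger than gains at the extremes. The median log2 fold change was 0.91 among genes called higher and -1.15 among genes called lower, and 0.86 and -1.15 without Pp3c2 genes. With TMM scaling, called differences under 0.5 in log2 were 954 gains and 583 losses. At 8-fold or more, 283 genes were higher and 586 lower, and at 32-fold or more, 51 were higher and 206 lower. The excess of lower genes at 8-fold or more stood under the other scalings too, with 242 higher and 659 lower genes for library totals alone, and 271 and 601 for median-ratio size factors. This excess was largest among genes of few counts. With TMM, 86 were higher and 203 lower below an average log2 CPM of 1, and 71 and 207 from 1 to 3. The counts were 67 and 100 from 3 to 5, 43 and 56 from 5 to 7, 13 and 16 from 7 to 9, and 3 and 4 above 9. Genes with 0 counts in NDUFA5 KO are among the lower ones, and their fitted folds depend on the prior count.

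**Figure D2:**
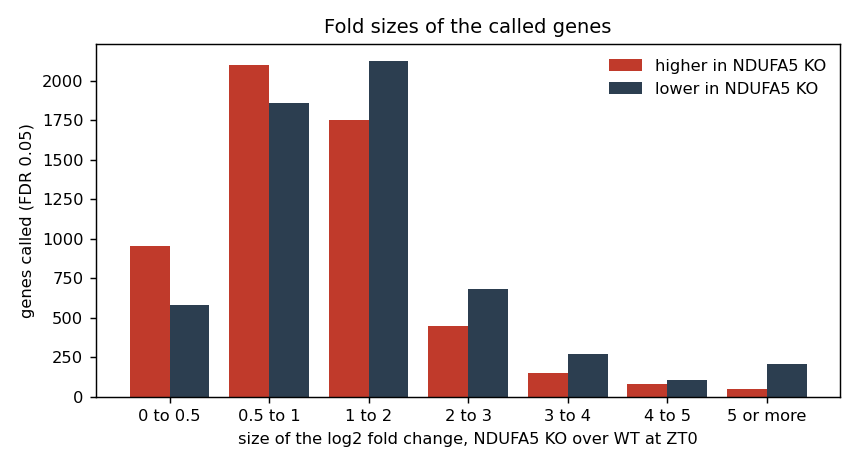
Number of genes called at FDR 0.05 (vertical axis) by the size of their log2 fold change, NDUFA5 KO over WT at ZT0 (horizontal axis, in classes), with higher genes on the left and lower genes on the right of each class. Higher genes outnumber lower ones in the 2 smallest classes (954 against 583, and 2101 against 1859), and lower genes outnumber higher ones in every class from 1 upwards (206 against 51 in the last).

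The balance of gains and losses differed with abundance. Of the 3664 genes with an average log2 CPM of 1 to 3, 50.96% were called, and 662 were higher and 1205 lower. Of the 4557 genes with an average of 5 to 7, 71.4% were called, and 1844 were higher and 1410 lower. The 282 most abundant genes, with an average above 9, were called in 67.02% of cases with 95 higher and 94 lower. Under library totals alone the balance of the 5 to 7 class turned, to 1464 higher and 1739 lower, while the 1 to 3 class gave 523 higher and 1426 lower, and the most abundant class 66 higher and 126 lower. The share called also follows the counts available per gene, since a change of a given size passes the test more readily at higher counts.

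Some genes were counted in 1 genotype only. In 84 genes no NDUFA5 KO library held a count while each of the 6 WT libraries held at least 1, and 55 of them passed the filter on low counts. Taking 3 counts over the group as the floor, 66 of the 84 were at least 8-fold lower in NDUFA5 KO, with a median bound of 16.2-fold and a highest bound of 228-fold. The reverse, no count in any WT library and counts in all 4 NDUFA5 KO libraries, held for 52 genes, of which 13 passed the filter. Both sets were picked by the counts of this comparison, so their tests add nothing. Their median total was 15 counts over the 4 libraries, and 17 of the 52 were at least 8-fold higher. None of the 52 and 4 of the 84 carried the prefix Pp3c2. Such bounds cover counting error only.

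Among genes changed at least 2-fold without overlap (2026 higher and 2252 lower with an average log2 CPM above 1), the largest gain in abundance belonged to Pp3c2_13670. It had 23654 and 22342 CPM in line 46 and 21525 and 21660 CPM in line 48. In WT its lowest, median and highest values were 3189, 3625 and 3847 CPM. All knockout libraries stood far above every WT library, and the gene took 1.86% of all counts in NDUFA5 KO and 0.340% in WT. The log2 fold change was 2.63 with a standard error (SE) of 0.139 (edgeR adjusted p = 5.02e-20). It carries the prefix Pp3c2, whose 1143 genes had a median log2 fold change of 0.85.

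The next largest gain was that of Pp3c4_13060. Its values were 8022 and 9998 CPM in line 46 and 9627 and 10528 CPM in line 48, against a lowest, median and highest of 652, 973 and 1227 CPM in WT. The lowest knockout library was thus several times the highest WT library. The log2 fold change was 3.32 with an SE of 0.338 (edgeR adjusted p = 2.28e-11).

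The largest loss was that of Pp3c8_7680, which had 1054 and 228 CPM in line 46 and 618 and 686 CPM in line 48. In WT its lowest, median and highest values were 4458, 7622 and 11032 CPM. Every knockout library was below every WT library, although the 2 libraries of line 46 differed from each other more than the lines did. The log2 fold change was -3.57 with an SE of 0.441 (edgeR adjusted p = 3.21e-09), and the gene took 0.0538% of the counts in NDUFA5 KO and 0.727% in WT. Pp3c19_20840 followed, with 1251 and 711 CPM in line 46, 757 and 828 CPM in line 48, and a lowest, median and highest of 4197, 5841 and 10408 CPM in WT. Its log2 fold change was -2.81 with an SE of 0.409 (edgeR adjusted p = 1.28e-07), again without overlap.

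**Figure D3:**
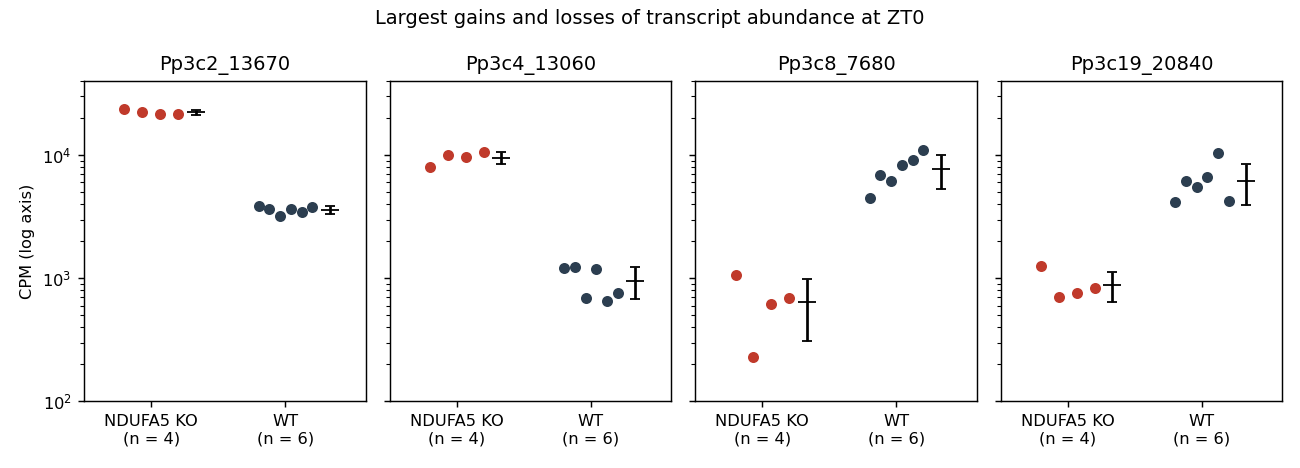
CPM on a log axis of the 2 genes with the largest gain and the 2 with the largest loss of abundance at ZT0; each point is 1 library, with NDUFA5 KO (n = 4) on the left and WT (n = 6) on the right of each panel. In each of the 4 genes the knockout and WT libraries do not overlap: Pp3c2_13670 lies at 21525 to 23654 CPM against 3189 to 3847 CPM, and Pp3c8_7680 at 228 to 1054 CPM against 4458 to 11032 CPM.

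These 4 genes differed in how their change behaved in the light. Both losses were also called in the light: Pp3c8_7680 had a log2 fold change of -4.29 at ZT2 and -4.18 at ZT6, and Pp3c19_20840 of -3.19 and -3.21, and the test of the difference from the effect at ZT0 gave an edgeR adjusted p of 0.322 and 0.326 for the first gene and 0.606 and 0.511 for the second. Pp3c2_13670 was still higher, by 1.89 and 1.99, but by less than at ZT0, with differences of -0.74 (SE 0.198, edgeR adjusted p = 0.00326) and -0.64 (SE 0.184, edgeR adjusted p = 0.00419). At ZT2 it had 13437, 14612 and 13428 CPM in line 46 but 6918 and 8101 CPM in line 48, so the ZT2 values average 2 unlike lines. There the sample codes begin with Z in line 46 and with A in line 48, so line and sample code cannot be told apart. Pp3c4_13060 was higher by 2.17 at ZT2, where the difference from the effect at ZT0 was not called (-1.15, SE 0.472, edgeR adjusted p = 0.0562). Its fitted value at ZT6 was 0.77, which was called (SE 0.289, edgeR adjusted p = 0.0309). Its effect at ZT6 was below that at ZT0 by 2.55 (SE 0.446, edgeR adjusted p = 9.69e-06). At ZT6 it had 287 ± 251 CPM in NDUFA5 KO (SD, n = 5) and 169 ± 36.7 CPM in WT (n = 8), so that its level was far below that at ZT0 in both genotypes. The NDUFA5 KO mean at ZT6 was raised by library 46-3, at 731 CPM. The medians were 180 CPM in NDUFA5 KO and 171 CPM in WT.

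In the COX11 KO at ZT0, which lacks an assembly factor of complex IV in place of a subunit of complex I, the same 4 genes stood as follows. Pp3c2_13670 had 22295 ± 974 CPM in NDUFA5 KO (SD, n = 4) and 7825 ± 696 CPM in COX11 KO (n = 5), and was higher in NDUFA5 KO by 1.51 in log2 (edgeR adjusted p = 5.39e-12). Pp3c4_13060 had 9544 ± 1080 CPM in NDUFA5 KO and 897 ± 337 CPM in COX11 KO, where its range of 467 to 1314 CPM overlapped that of WT, and was higher in NDUFA5 KO by 3.41 (edgeR adjusted p = 9.76e-11). Pp3c8_7680 and Pp3c19_20840 were low in both knockouts. The values of Pp3c8_7680 were 646 ± 338 CPM in NDUFA5 KO and 316 ± 158 CPM in COX11 KO, a difference of 1.03 (edgeR adjusted p = 0.0214), and those of Pp3c19_20840 were 887 ± 248 and 1153 ± 626 CPM, a difference of -0.38 with an SE of 0.381 (edgeR adjusted p = 0.401). Over all genes, 11075 (60%) differed between NDUFA5 KO and COX11 KO at ZT0, 5250 higher and 5825 lower in NDUFA5 KO. With library totals alone, 24.5% of the called genes were higher in NDUFA5 KO, against 47.4% with TMM, and the median of all genes moved to -0.48 (-0.092 with TMM).

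The first part of an ID groups the genes, and those that begin with Pp3c2 stood apart. Of 1143 such genes tested, 712 were called higher in NDUFA5 KO and 135 lower, where 30% and 31.6% of all genes were called, and 488 were higher by at least 2-fold. The median over these genes of the difference from the WT mean in log2 CPM was 0.92 and 0.91 in the line 46 libraries and 0.76 and 0.77 in the line 48 libraries. In the WT libraries it lay between -0.017 and 0.039. Each knockout library was therefore above each WT library, and line 46 was somewhat above line 48. The median fitted log2 fold change was 0.85, and 0.67 with library totals alone, where 652 genes were called higher and 166 lower. Pp3c2 genes held 11.8% to 12.8% of the counts in NDUFA5 KO and 5.76% to 5.90% in WT. A shift of this prefix was not particular to NDUFA5 KO. In COX11 KO at ZT6, 481 of the 1143 Pp3c2 genes were at least 2-fold higher than in WT, and 27 were lower. Of the 17317 other genes, 749 were higher and 1493 lower in that comparison.

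The shift of Pp3c2 genes was broad but not uniform. A log2 fold change of 0.5 to 1.5 was found in 41.3% of them and in 18.98% of the other genes, and one above 1.5 in 22.4% against 6.27%. Below 0.5 lay 415 of the 1143, and 82 were called lower by at least 2-fold. Ordered by the running number in the ID and cut into 12 stretches of up to 100 genes, every stretch was higher in NDUFA5 KO, with medians of 0.53 to 1.28 in the knockout libraries and of -0.19 to 0.19 in the WT libraries. The highest stretch was the fourth, with means of 1.21 in line 46 and 1.09 in line 48. The eleventh was lowest in line 48, at 0.54.

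The other 26 prefixes with at least 100 tested genes showed no shift of that size. Their median log2 fold changes ran between -0.18 (Pp3c4) and 0.043 (Pp3c21), around the median of all genes of -0.044, and the share of genes called lay between 57.3% (Pp3c9) and 65.8% (Pp3c18). Over these prefixes the medians of single knockout libraries lay between -0.21 and 0.11. For Pp3c25 they were -0.032 and -0.027 in line 46 and -0.097 and -0.10 in line 48, against -0.029 to 0.032 in WT. For Pp3c27 they were -0.18 and -0.12 in line 46 and -0.18 and -0.21 in line 48, below the WT range of -0.033 to 0.080. Small differences without overlap went in both directions. Pp3c4 lay at -0.20 to -0.052 in NDUFA5 KO and -0.043 to 0.041 in WT, and Pp3c21 at 0.038 to 0.11 and -0.014 to 0.029. With library totals alone the medians of the 26 prefixes ran between -0.36 and -0.13, around -0.23 for all genes. Called genes were thus found under every prefix, and leaving out Pp3c2 moved the share called by less than 1 percentage point.

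**Figure D4:**
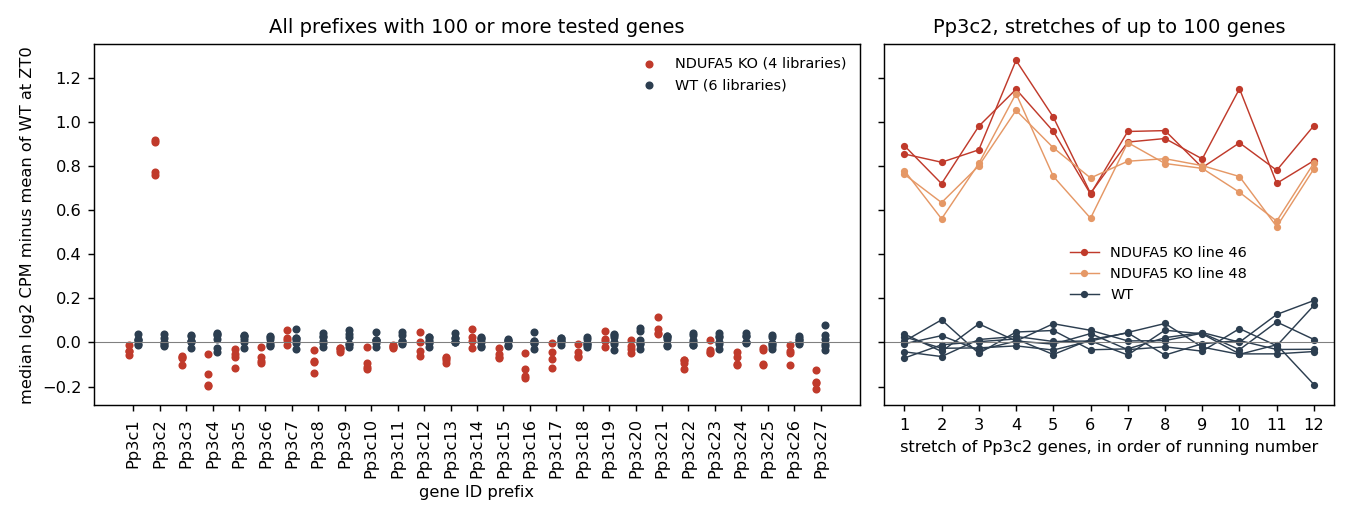
Median over genes of log2 CPM minus the mean of WT at ZT0, for each ID prefix with 100 or more tested genes (left) and for 12 stretches of Pp3c2 genes in order of running number (right); each point is 1 library. In Pp3c2 the 4 NDUFA5 KO libraries lie at 0.76 to 0.92 and the WT libraries at -0.017 to 0.039, and in each stretch all knockout libraries (0.53 to 1.28) lie above all WT libraries (-0.19 to 0.19).

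The 2 independent lines gave similar counts of changed genes when each was set against the same 6 WT libraries. Line 46 differed from WT in 9890 genes (53.6%), 4902 higher and 4988 lower, and line 48 in 10143 genes (54.9%), 4888 higher and 5255 lower. Without Pp3c2 genes the counts were 9085 for line 46 and 9375 for line 48. As the WT libraries are shared, the lines were also compared with each other directly. With 2 libraries a line, 36 genes were called (0.195%), 7 higher in line 46 and 29 higher in line 48. Of the 18460 genes tested, 2066 had an unadjusted p under 0.05. So few libraries can leave differences uncalled, and the count of 36 does not show that the lines were alike. DESeq2 called 170. The number rested on single libraries: it was 172 without 46-1, 0 without 46-2, 7 without 48-1 and 0 without 48-2, and 58, 64 and 55 without WT 3, WT 4 and WT 6, which enter through the shared spread and scaling. A lone remaining library of a line was assumed to vary like the other groups.

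Among the genes called between the lines, Pp3c9_24840 and Pp3c9_25690 were the 2 with the largest difference in favour of line 46. Pp3c9_24840 had 108 and 110 CPM in line 46 and 23.04 and 24.1 CPM in line 48, a difference of 2.21 in log2 (SE 0.5, edgeR adjusted p = 0.0446). In WT it varied widely, with a lowest, median and highest of 41.3, 106 and 223 CPM, so that line 46 lay inside the WT range and line 48 below it. Pp3c9_25690 had 261 and 233 CPM in line 46 and 73.8 and 78.1 CPM in line 48, a difference of 1.701 (SE 0.379, edgeR adjusted p = 0.0426), with WT at 126, 206 and 295 CPM. It showed the same arrangement, line 46 inside the WT range and line 48 below it.

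In the other direction, Pp3c1_31230 had 3.33 and 5.78 CPM in line 46 and 16.8 and 19.3 CPM in line 48, a difference of -1.94 (SE 0.432, edgeR adjusted p = 0.0426). WT lay at 2.37, 5.67 and 9.04 CPM (lowest, median and highest), so that line 48 alone was outside its range. Pp3c5_9860 had 12.5 and 11.5 CPM in line 46 and 35.8 and 46.5 CPM in line 48, a difference of -1.78 (SE 0.406, edgeR adjusted p = 0.0463). Both lines were above WT, at 1.37, 2.21 and 4.31 CPM. For the first 3 of these genes the WT libraries also split by sample code number. Pp3c9_24840 had 223, 131 and 125 CPM in WT 1 to 3 and 86.2, 52.97 and 41.3 CPM in WT 4 to 6, and the codes of the line 46 libraries differ from those of line 48 as well. Line and sample code therefore cannot be told apart in this comparison. All 4 calls were lost when any 1 of the 4 knockout libraries was left out, with the same sign of the difference. Without 46-1 the edgeR adjusted p was 0.051 for Pp3c9_24840, 0.072 for Pp3c9_25690, 0.13 for Pp3c1_31230 and 0.0776 for Pp3c5_9860. Without 48-2 it was 0.516, 0.464, 0.433 and 0.522 in the same order.

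Many of the changes at ZT0 were also called in the light, where 43.9% of all genes were called at ZT2 and 39.2% at ZT6. Of the 2486 genes higher by at least 2-fold at ZT0, 1421 (57.2%) were called higher at ZT2, where 22.9% of all genes were, and 142 were called lower. At ZT6, 1076 (43.3%) were called higher, where 18.7% of all genes were, and 247 lower. The median log2 fold change of these genes was 0.67 at ZT2 and 0.38 at ZT6. Of the 3397 genes lower by at least 2-fold at ZT0, 1866 (54.9%) were called lower at ZT2 and 1396 (41.1%) at ZT6, where 21.1% and 20.5% of all genes were, with medians of -0.78 and -0.40. Pp3c2 genes made up 488 of the 2486 higher genes and 82 of the 3397 lower genes. The shares called in the light were not computed without them. The ZT2 and ZT6 libraries are not those that chose the genes, but they come from the same 2 lines. Since the genes were picked for large values at ZT0, their medians there, 1.53 and -1.71, are not comparable with those in the light.

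The test of the difference itself does not rest on such a choice. The effect of the knockout at ZT2 differed from that at ZT0 in 6040 genes (32.7%), and that at ZT6 in 8534 genes (46.2%), 7981 of them outside Pp3c2. Of these differences, 50.0% at ZT2 and 50.1% at ZT6 were positive with TMM. With library totals alone 73.5% and 75.5% were positive, and the median over all genes moved to 0.33 and 0.44 (0.069 and 0.074 with TMM). In WT all sample codes begin with A at ZT2 and with Z at ZT0. The ZT2 difference therefore cannot be fully told apart from sample code.

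The genes with the largest such differences were near or at 0 in 1 or more of the groups compared. Pp3c4_26050 and Pp3c18_19660 had 0 counts in the 4 NDUFA5 KO libraries at ZT0, against 55 counts and 73 counts over the 6 WT libraries. Pp3c18_19660 lay between 0 and 3.83 CPM in the WT libraries. With 3 counts over the group as the floor, Pp3c4_26050 was at least 16.2-fold lower in NDUFA5 KO, and the bound for Pp3c18_19660 was 21.4-fold. At ZT6 Pp3c18_19660 was present in both genotypes, with 2.97 ± 0.379 CPM in NDUFA5 KO (SD, n = 5) and 3.37 ± 2.05 CPM in WT (n = 8). The difference of its effects at ZT6 and ZT0 passed the test at an edgeR adjusted p of 0.000102, and that of Pp3c4_26050 at 5.27e-06. Pp3c24_3650 was found at the end of the night in the knockout, at 33.5 and 14.6 CPM in line 46 and 24.5 and 22.7 CPM in line 48, against a lowest, median and highest of 0, 0.381 and 0.7095 CPM in WT. At ZT6 it had 2 counts over the NDUFA5 KO libraries and 5 over the WT libraries, and the difference of effects was -6.61 (SE 1.76, edgeR adjusted p = 0.00208). Pp3c2_27000 had 233 and 127 CPM in line 46 and 82.2 and 76.7 CPM in line 48 at ZT0, against 0.431, 1.64 and 3.16 CPM in WT, a difference of effects of -6.56 (SE 0.765, edgeR adjusted p = 2.84e-09). At ZT6 it had 1.04 ± 0.717 CPM in NDUFA5 KO (SD, n = 5) and 1.24 ± 0.852 CPM in WT (n = 8). Of the groups compared, Pp3c24_3650 and Pp3c2_27000 were thus high only in NDUFA5 KO at ZT0. All knockout libraries were above all WT libraries for both genes at ZT0.

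Lists drawn from libraries outside the comparison give a view of which genes moved. Genes that differed at least 2-fold between NDUFA5 KO and WT in the light were set against the comparison at ZT0. Of 1594 genes higher at ZT2, 870 were called higher at ZT0 (54.6%, against 30% of all genes) and 131 lower, with a median log2 fold change of 1.04, and of 0.90 without the 281 Pp3c2 genes among them. Of 1777 genes lower at ZT2, 1479 were called lower at ZT0 (83.2%, against 31.6% of all genes) and 72 higher, with a median of -1.75. The lists from ZT6 gave 605 higher and 57 lower of 1258 genes, with a median of 0.93, and 818 lower and 76 higher of 1108 genes, with a median of -2.05. Pp3c2 genes made up 348 of the 1258. Without these, 374 were higher and 51 lower of 910, with a median of 0.84. The 1108 included 26 Pp3c2 genes, and without these the median was -2.03. In every one of these lists all 4 knockout libraries lay beyond all 6 WT libraries at ZT0. With library totals alone, which also changes the lists, the ZT2 lists gave 915 higher and 194 lower of 1820 genes, and 1356 lower and 49 higher of 1567 genes.

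Genes that differed at least 2-fold between COX11 KO and WT at ZT6 were examined in the same way. Of 1230 genes higher in that comparison, 779 were called higher in NDUFA5 KO at ZT0 (63.3%, against 30% of all genes) and 59 lower, with a median log2 fold change of 1.05. Pp3c2 genes made up 481 of them, and without these the median was 0.97, with 421 called higher and 45 lower of 749 genes. Of 1520 genes lower in COX11 KO at ZT6, 1072 were called lower (70.5%, against 31.6% of all genes) and 99 higher, with a median of -1.82. The 4 knockout libraries lay between -1.57 and -1.43 below the WT mean at ZT0 and the WT libraries between -0.38 and 0.36. What the 2 sets of knockout lines may share besides respiration was not tested.

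Genes that differed between times of day were taken from WT and COX11 KO. Sample codes of the WT libraries begin with A at ZT2, mostly with Z at ZT6 and only with Z at ZT0. Those of COX11 KO begin mostly with A at ZT2, mostly with Z at ZT6 and only with Z at ZT0. Time and sample code therefore cannot be fully told apart in these lists. Genes at least 2-fold higher at ZT6 than at ZT2 in WT numbered 1189. In NDUFA5 KO at ZT0, 159 of them were called higher and 557 lower (46.8%, against 31.6% of all genes), with a median log2 fold change of -0.69, and of -0.71 without Pp3c2 genes. Their median per library was -0.56 and -0.50 in line 46 and -0.64 and -0.62 in line 48. In WT it was 0.20, 0.28 and 0.20 in libraries 1 to 3 and -0.10, -0.22 and -0.24 in libraries 4 to 6. The knockout libraries lay below all of them, but the WT libraries split along their sample code numbers, which are lower in WT 1 to 3. In median log2 CPM these genes stood at 2.38 ± 0.065 (SD) over the 4 NDUFA5 KO libraries at ZT0, 3.06 ± 0.132 over the 5 COX11 KO libraries and 3.03 ± 0.271 over the 6 WT libraries. At ZT2 the 5 NDUFA5 KO libraries averaged 2.38 ± 0.141 and the 4 WT libraries 2.37 ± 0.0354. At ZT6 the 5 NDUFA5 KO libraries averaged 3.63 ± 0.128 and the 8 WT libraries 3.75 ± 0.124. The WT levels at ZT2 and ZT6 chose these genes, so the low WT level at ZT2 follows from the choice.

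In the remaining lists, members changed in both directions, and medians near 0 do not mean that they were unchanged. Of all 18460 genes, 30% were called higher and 31.6% lower, and 2486 were higher and 3397 lower by at least 2-fold. Genes higher at ZT6 than at ZT0 in COX11 KO, 1702 in number, had a median log2 fold change of -0.36 in NDUFA5 KO at ZT0, with 386 called higher (22.7%) and 681 lower (40.01%). Their knockout libraries, at -0.35 to -0.14, overlapped the WT libraries, at -0.31 to 0.29. Genes higher at ZT2 than at ZT0 in COX11 KO gave 472 higher (31.2%) and 499 lower (33.02%) of 1511, with 322 and 388 by at least 2-fold and a median of -0.066, and genes lower at ZT2 gave 471 higher (29.4%) and 573 lower (35.7%) of 1604, with 342 and 420 by at least 2-fold and a median of -0.14. Genes lower at ZT6 than at ZT0 in COX11 KO gave 603 higher (33.6%) and 573 lower (31.98%) of 1792, with 425 and 392 by at least 2-fold and a median of -0.002, and genes lower at ZT6 than at ZT2 in WT gave 275 higher (37.5%) and 286 lower (39.02%) of 733, with 196 and 203 by at least 2-fold and a median of -0.13. In these last 4 lists the knockout and WT libraries overlapped, and the medians lay within 0.1 of that of all genes. With library totals alone the genes lower at ZT6 than at ZT0 in COX11 KO gave 526 higher and 678 lower of 1813, so that the direction of their count turned.

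**Figure D5:**
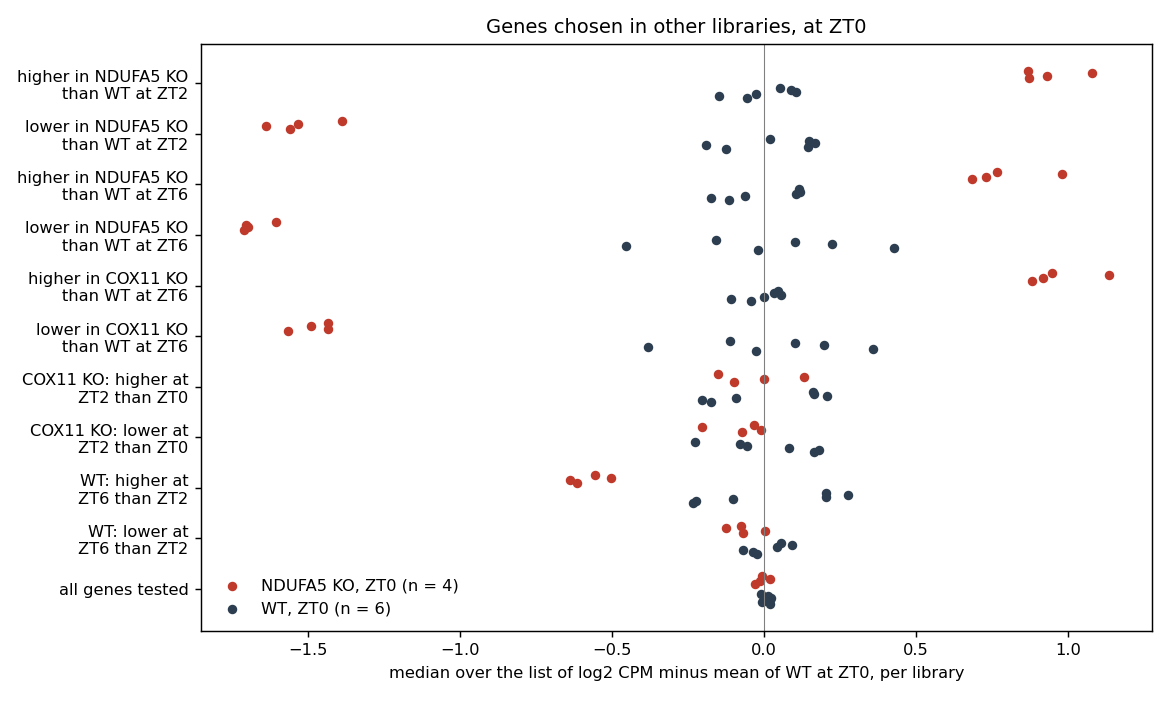
Median over each list of log2 CPM minus the mean of WT at ZT0 (horizontal axis), per library, with the NDUFA5 KO libraries above the WT libraries in each row; the lists come from libraries outside the comparison. Genes lower in the light in either knockout lie at -1.71 to -1.39 in NDUFA5 KO and at -0.46 to 0.43 in WT, and genes higher in WT at ZT6 than at ZT2 at -0.64 to -0.50 in NDUFA5 KO and -0.24 to 0.28 in WT.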

How the data were processed

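QuantSeq 3′ libraries were aligned with Bowtie2 2.2.5, handled with SAMtools 1.6 and counted with HTSeq 2.0.2, per the submitters' processing notes. For parameters and genome build: not given in the sources used here. Values as deposited are estimated counts per gene made by the authors: 2.35% are not whole (tolerance 1e-06), in 2085 of 32926 genes, so they were rounded, although whole counts had been planned for. Lines that name no gene were left out (31.2% to 33.4% of counts in NDUFA5 KO, 28.2% to 31.9% in WT). Of 57 columns, 10 were not used.

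In R 4.3.3, edgeR 4.0.16 (TMM scaling, filterByExpr over 9 groups leaving 18460 genes, quasi-likelihood F test, Benjamini-Hochberg FDR of 0.05) was fitted over 47 libraries with 1 mean per genotype and time, or per line and time. Standard errors were derived from F. The biological coefficient of variation was 21.8%. Log2 CPM used a prior count of 2. Named genes had FDR under 0.05 and average log2 CPM above 1. Those of NDUFA5 KO against WT at ZT0 also had a change of at least 2-fold and no overlap. Of these, the 2 per direction with the largest difference of mean CPM were taken. For lines (without overlap) and times (with no rule on overlap), the 2 per direction with the largest log2 value were taken. Lists hold genes called at 2-fold in other libraries. Members and lists were chosen with earlier results of these data known. Alternatives included other scalings and filters, DESeq2 1.42.0, sample code terms, and leaving out each library. The fitting was tested on simulated data in which few genes differed. That setting does not cover a comparison with 61.6% of the genes called. No 2 of the 10 libraries agreed within sampling noise. The closest were 48-1 and 48-2, with a chi-square per gene of 2.55. The next closest, WT 2 and WT 3, gave 5.02, and 46-1 and 46-2 gave 14.99. Precision follows from 4501681 to 10349601 counts per library.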

Additional observations from a re-analysis of the deposited data

Results flagged for a closer look

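Among 66 groups of values searched for a library far from the others, 2 were found, and chance alone gives about 1 in 20. Library 46-2 had 10349600 counts in genes, far above the other NDUFA5 KO libraries. Library 46-1 had a median of -1.61 over the genes lower in NDUFA5 KO at ZT6, against -1.71 to -1.70 in the other 3 knockout libraries.

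The effect of the knockout differed between times, by the test of the difference, in the following genes. For Pp3c2_13670 the effect at ZT2 minus that at ZT0 was -0.74, and the effect at ZT6 minus that at ZT0 was -0.64. For Pp3c4_13060 the difference at ZT6 was -2.55. For Pp3c24_3650 it was -6.61 and for Pp3c2_27000 -6.56. For Pp3c4_26050 and Pp3c18_19660 the model gave 6.69 and 6.66, but all 4 NDUFA5 KO libraries at ZT0 had 0 counts, so these values depend on the prior count and are neither measured folds nor bounds.

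Line 46 and line 48 differed in Pp3c9_24840 by 2.21, in Pp3c9_25690 by 1.701, in Pp3c1_31230 by -1.94 and in Pp3c5_9860 by -1.78 (log2, line 46 minus line 48), where line and sample code cannot be told apart. Outside the gene counts, reads in no gene averaged 1.09% in NDUFA5 KO, against 0.772% in WT.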

How the results depend on the processing

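The count of genes called between NDUFA5 KO and WT lay between 9334 and 11739 under other scalings, filters, sample code terms and tools fitted here, apart from the fits to the 10 ZT0 libraries alone, which gave 9342 without and 8004 with the replicate block. The numbers do not pair the libraries (correlations of same-numbered libraries of 0.0782, 0.187, -0.141 and -0.193), and the block changed no call of the 4 named genes. With letter Z of the sample codes only, which drops 46-1, 10897 genes were called. DESeq2 called 11406. Leaving out 1 library gave 10753 to 11368. Between lines 46 and 48, DESeq2 called 170 genes, and leaving out 1 library gave 0 to 172. Without a filter the adjusted p of Pp3c5_9860 was 0.0526.

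Medians of groups, taken here relative to the median of all genes, kept their direction except where named. That of Pp3c2 genes was 0.90, and 0.743 without a filter. Without Pp3c2 genes that of genes higher at ZT2 was 0.984 and that of genes lower at ZT6 was -1.945. With library totals alone, genes lower at ZT6 gave -2.458, and genes higher and lower in COX11 KO at ZT6 gave 0.954 and -2.125. Leaving out 1 library gave -2.186 to -1.986 for genes lower at ZT6, -1.85 to -1.726 for genes lower in COX11 KO at ZT6, and -0.6895 to -0.558 for genes higher at ZT6 than at ZT2 in WT. In place of the genes higher at ZT2 than at ZT0 in COX11 KO (-0.0219), those higher at ZT6 gave -0.3134 and those higher at ZT6 than at ZT2 in WT gave -0.6412. In place of those lower at ZT2 (-0.0998), those lower at ZT6 gave 0.04243, the opposite sign. Leaving out 1 library moved the genes higher at ZT2 than at ZT0 in COX11 KO between -0.105 and 0.0279, and those lower at ZT6 between -0.00675 and 0.112. The cause was not tested. Depth limits genes of few counts: below an average log2 CPM of 1, 43.1% were called.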
